A study of Rattus norvegicus with 3 samples.

Results

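The transcripts described are those of neonatal rat ventricular myocytes after 1 h of dexamethasone (Dex), set against an ethanol control. All gene rows with at least 1 FPKM in one of these groups were taken. FPKM is a fragment count corrected for the length of the transcript and the size of the library. This gave 10550 of the 17450 gene rows, with 10360 distinct symbols. The cells were ventricular heart muscle cells of 1-day-old Sprague Dawley pups, enriched over Percoll and by preplating, plated in serum and then moved to medium without serum. The Dex 1 h group received 100 nM Dex for 1 h and the Control group received ethanol for a time that is not given. A further group received 100 nM Dex for 24 h and appears here only for orientation. Each group was 1 sample with 1 value per gene, and its title names 2 libraries. Differences between Dex 1 h and Control therefore cannot be told apart from differences in time in culture, and no spread between replicates could be computed here.

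Dexamethasone is a synthetic glucocorticoid. It enters the cell, binds the glucocorticoid receptor (GR, gene Nr3c1) in its chaperone complex, and the receptor moves to the nucleus, where it binds DNA at hormone response elements or meets other transcription factors. Genes that respond within the first hour are often transcription factors, signalling inhibitors and enzymes with short-lived transcripts, and in heart and skeletal muscle glucocorticoids are known for shifting fuel use away from glucose and for restraining inflammatory signalling. The comparison asked which transcripts respond early to the hormone in heart muscle cells.

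After 1 h, 71 gene rows rose and 28 fell. The largest rises were those of Pdk4, Arrdc3, Per1 and Abra, and the largest falls among protein-coding genes were those of Dusp5, Phlda1, Cxcr4 and Plk2. The words rose and fell are used only for genes that carry the significance mark of the authors' deposited table, a q-value of at most 0.05. These 99 rows were 0.939% of the 10548 tested members (0.673% higher and 0.265% lower). In that table a given p-value has the same q-value at 1 h as between Dex 24 h and Dex 1 h. The q-values were thus adjusted over more than the 1 h comparison. An adjustment within the 1 h comparison alone, at 0.05, keeps 63 of the 99 rows (49 higher and 14 lower), so the other marks are weaker. The smallest q in the authors' deposited table, 0.00238, was shared by 37 of the genes that rose and 12 of those that fell, so it does not rank them. No source used here states whether the 2 libraries of a group entered that test as replicates. Log2 folds below have 1 FPKM added to both values unless a plain ratio is named. The plain log2 ratio divided by the authors' test statistic is called the implied standard error (SE). It had a median of 0.333 over the members and ran between 0.304 and 0.683 for the marked genes. Values after ± below are this quotient and not a measured spread between replicates. The quotient alone does not give the mark. The microRNA row Mir25 had 0.0081 at a plain log2 ratio of −2.04 and was not marked. Irf1 had 0.356 at −0.80 and was marked.

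Most transcripts were close to their Control level. The median log2 fold of the members was −0.0044, its quartiles were −0.10 and 0.11, and 98.5% of the members (10387) were within 1.5-fold. A 2-fold difference was passed upward by 39 members (0.37%) and downward by 20 (0.19%), and 10 of these were rows of microRNA precursors that are treated separately. The genes that rose had a median log2 fold of 0.92, between 0.64 and 2.74, and 31 of them passed 2-fold. The genes that fell had a median of −0.88, the largest fall was −1.85, and 12 passed 2-fold. Genes that rose had a median of 18.7 FPKM in Dex 1 h and of 6.45 FPKM in Control, against medians over all members of 15.5 FPKM in Dex 1 h and 15.3 FPKM in Control. Genes that fell had a median of 6.93 FPKM in Dex 1 h and of 16.6 FPKM in Control. No member with a mean above 1000 FPKM was marked, among 130, and the marked share was highest, at 1.38%, below a mean of 2 FPKM.

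**Figure D1:**
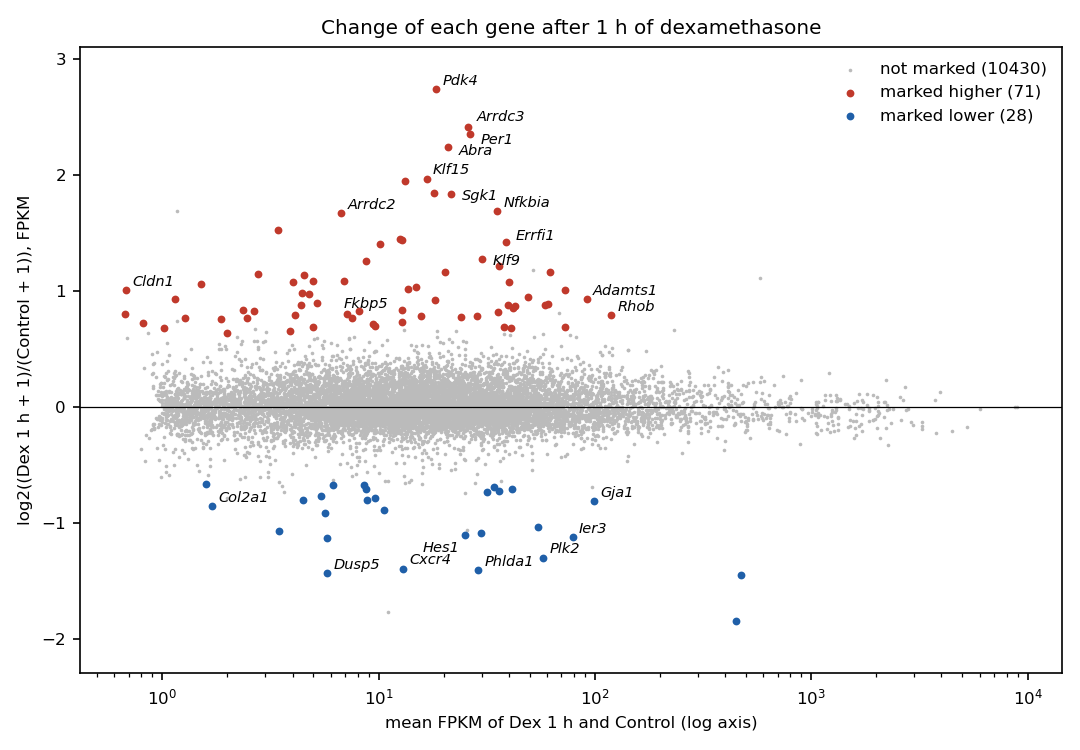
Each point is a tested member, placed by its mean FPKM over Dex 1 h and Control (log axis) and by its log2 fold with 1 FPKM added. Red points are the 71 genes marked higher, blue points the 28 marked lower and grey points the 10430 that are not marked (rows of microRNA precursors are left out). All marked genes lie past 1.5-fold, where some unmarked genes lie too, such as Orm1 (1.69) and an Rn5-8s row (−1.77).

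Genes long known as direct receptor targets in other tissues rose, among them Fkbp5, Tsc22d3, Per1 and Nfkbia. Fkbp5, the co-chaperone that lowers the receptor's affinity for hormone, had 16.8 FPKM in Dex 1 h and 8.97 FPKM in Control, a log2 fold of 0.84. Tsc22d3, the leucine zipper protein GILZ, had 79.3 FPKM in Dex 1 h and 42.5 FPKM in Control (0.89), the 1 marked of 4 tested TSC22 domain genes. Both folds were modest beside Per1, a repressor of the circadian clock, with 44.99 FPKM in Dex 1 h and 8.02 FPKM in Control (2.35). The receptor's own gene, Nr3c1, had 19.6 FPKM in Dex 1 h and 19.7 FPKM in Control. It was not marked, and because other rows overlap its locus that value is uncertain. Of the 33 tested nuclear receptors and receptor chaperones, Fkbp5 alone was marked and the median log2 fold was −0.02, against a median of −0.0031 over all 11582 tested genes, of which 0.622% were marked higher and 0.242% lower. Of the 17 tested clock genes Per1 alone rose, and the list's median was 0.00089. Its paralog Per2 had 7.66 FPKM in Dex 1 h and 7.57 FPKM in Control.

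Several transcription factors rose and some fell. Klf15, a regulator of amino acid and lipid use in heart and muscle, had 27.2 FPKM in Dex 1 h and 6.22 FPKM in Control (1.97). Klf9, a repressor of the same family, had 43.0 FPKM in Dex 1 h and 17.2 FPKM in Control (1.27). Klf10, known as a gene induced early by TGF-beta, went the other way, with 7.08 FPKM in Dex 1 h and 13.995 FPKM in Control (−0.89). Of 13 tested Kruppel-like factors these were the 3 marked, 2 higher and 1 lower, and 7 of the 13 reached an unadjusted p below 0.05 in the authors' deposited table, as did 2.76% of all tested genes. The family thus held factors at both ends, with a median of 0.14.

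The C/EBP factors Cebpd and Cebpb, which are known to act in inflammation and in fat cell differentiation, rose. Cebpd had 50.5 FPKM in Dex 1 h and 21.2 FPKM in Control (1.22), and Cebpb had 30.6 FPKM in Dex 1 h and 17.5 FPKM in Control (0.77). The other 4 tested members of the family were not marked, among them Cebpa at 3.43 FPKM in Dex 1 h and 3.56 FPKM in Control. The zinc finger factor Zfp189 had 15.2 FPKM in Dex 1 h and 5.13 FPKM in Control (1.40). Sox8, a factor of neural crest and gonad development, rose at a very low level, 1.13 FPKM in Dex 1 h against 0.22 FPKM in Control (0.80), and was the 1 marked gene among 21 tested cardiac and developmental factors. Forkhead factors were split, with Foxq1 higher (0.68) and Foxc2, a factor of vessel and lymphatic development, lower (−0.80) among 17 tested. Arid5a, an RNA-binding protein that stabilises inflammatory messages, and the proto-oncogene Mycn fell (−0.78 and −0.81).

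**Figure D2:**
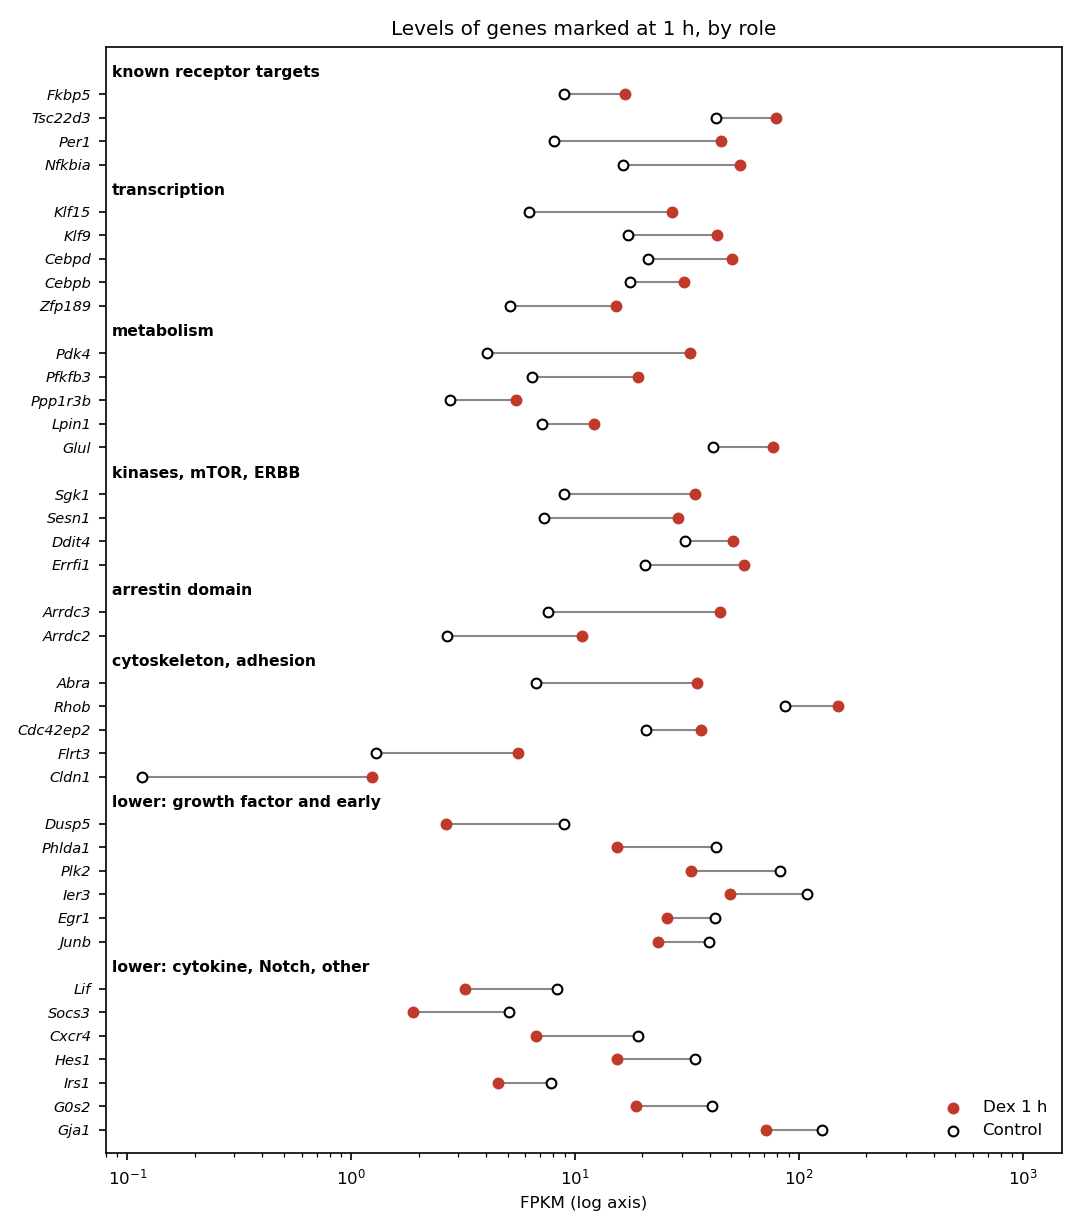
FPKM (log axis) of 38 genes marked at 1 h, grouped by role, with Dex 1 h as filled points and Control as open points joined by a line. The gaps are widest for Cldn1, Pdk4, Arrdc3 and Per1 among the genes that rose and for Dusp5, Phlda1 and Cxcr4 among those that fell.

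Genes of fuel use rose as single enzymes at regulatory points, not as whole pathways. Pdk4, the kinase that switches off pyruvate dehydrogenase and so spares glucose, had 32.8 FPKM in Dex 1 h and 4.06 FPKM in Control, the largest fold of all marked genes (2.74; plain log2 ratio 3.01 ± 0.38, SE). Pfkfb3, which makes the activator of phosphofructokinase, had 19.1 FPKM in Dex 1 h and 6.45 FPKM in Control (1.43). Ppp1r3b, a glycogen-targeting subunit of protein phosphatase 1, had 5.47 FPKM in Dex 1 h and 2.75 FPKM in Control (0.79). These were the 3 marked among 31 tested rows of glucose and pyruvate metabolism, whose median was −0.06. The paralogs of Pdk4 were near their Control level, with Pdk1 at 13.7 FPKM in Dex 1 h and 12.6 FPKM in Control and Pdk2 at 25.4 FPKM in Dex 1 h and 30.03 FPKM in Control.

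In lipid metabolism 1 gene rose and 1 fell among 33 tested (median 0.01). Lpin1, a phosphatidate phosphatase and nuclear coactivator, had 12.2 FPKM in Dex 1 h and 7.15 FPKM in Control (0.70). G0s2, the inhibitor of the triglyceride lipase ATGL (gene Pnpla2), had 18.7 FPKM in Dex 1 h and 40.8 FPKM in Control (−1.09). Acer2, a ceramidase, and Dgke, a diacylglycerol kinase, rose as well (0.75 and 0.69). In amino acid and polyamine metabolism glutamine synthetase, Glul, rose with 76.6 FPKM in Dex 1 h and 41.3 FPKM in Control (0.88), the 1 marked gene of 20 tested. None of 23 tested genes of oxidative phosphorylation was marked or had an unadjusted p below 0.05 in the authors' deposited table, and their median was −0.02. The 2 with the highest Control level there were the ATP synthase subunit Atp5b, at 1839 FPKM in Dex 1 h and 1858 FPKM in Control, and the cytochrome oxidase subunit Cox4i1, at 1012 FPKM in Dex 1 h and 1066 FPKM in Control.

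Regulators of growth signalling downstream of insulin and of mTOR changed in both directions. Sgk1, a kinase related to Akt that regulates ion channels and transporters (rn5 chromosome 1, 25652750 to 25660866), had 34.3 FPKM in Dex 1 h and 8.89 FPKM in Control (1.84; plain log2 ratio 1.95 ± 0.33, SE). Sesn1, a leucine sensor that holds back mTORC1, had 28.7 FPKM in Dex 1 h and 7.31 FPKM in Control (1.84), and its locus overlaps another row, so the value is uncertain. Ddit4, the mTORC1 inhibitor REDD1, had 50.6 FPKM in Dex 1 h and 31.2 FPKM in Control (0.68). They were the 2 marked of 14 tested mTOR regulators, whose median was −0.06. The sestrin paralogs were not marked, Sesn2 having 27.9 FPKM in Dex 1 h and 32.8 FPKM in Control. On the side of insulin signalling, the adaptor Irs1 fell, with 4.52 FPKM in Dex 1 h and 7.83 FPKM in Control (−0.68), and the other 19 of 21 tested genes beside Sgk1 were not marked.

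Arrestin-domain proteins, adaptors that send membrane receptors and transporters to ubiquitin ligases, held 2 of the largest rises. Arrdc3 (chromosome 2, 8617991 to 8627696) had 44.4 FPKM in Dex 1 h and 7.55 FPKM in Control (2.41; plain log2 ratio 2.56 ± 0.36, SE). Arrdc2 (chromosome 16, 20209577 to 20213710) had 10.7 FPKM in Dex 1 h and 2.69 FPKM in Control (1.67). The other 5 tested members of the list were not marked and 4 of them lay below Control, so the median of all 7 was −0.16. Among these, Txnip, the glucose-responsive arrestin-domain protein, had 91.7 FPKM in Dex 1 h and 116 FPKM in Control.

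The genes that fell included early response genes and feedback regulators of growth factor signalling. Plk2, a polo-like kinase induced by serum (chromosome 2, 60970299 to 60976058), had 32.9 FPKM in Dex 1 h and 82.4 FPKM in Control (plain log2 ratio −1.33 ± 0.31, SE). Ier3, an early gene that sustains ERK activity, had 49.3 FPKM in Dex 1 h and 109 FPKM in Control (−1.13). Ier5, a regulator of heat shock factor, had 31.3 FPKM in Dex 1 h and 51.9 FPKM in Control (−0.71). These fell together with the zinc finger factor Egr1, at 25.7 FPKM in Dex 1 h and 42.2 FPKM in Control (−0.69), and with Arc, best known from synapses, at 0.999 FPKM in Dex 1 h and 2.18 FPKM in Control (−0.67). That made 5 of 17 tested early genes lower and none higher, and the median of the list was −0.49, the lowest of the lists described here. The lists were chosen with earlier results of these data known. Other early genes, such as Fos and Jun, stand in another list, so this median depends on how early genes were divided. Of these 5 genes, Ier5, Egr1 and Arc lose the mark at a q-value of at most 0.01. Of the 17, 11 had an unadjusted p below 0.05 in the authors' deposited table, of which only Csrnp1 lay above Control, at 22.2 FPKM in Dex 1 h and 16.2 FPKM in Control.

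The classical AP-1 genes did not share this pattern. Junb fell, with 23.5 FPKM in Dex 1 h and 39.9 FPKM in Control (−0.74), and was the 1 marked of 13 tested. Fos had 11.9 FPKM in Dex 1 h and 8.98 FPKM in Control, and Jun had 53.9 FPKM in Dex 1 h and 43.1 FPKM in Control. Neither was marked, and the list's median was −0.12.

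Feedback regulators of MAP kinase and growth factor receptor signalling were also divided. Dusp5, the nuclear phosphatase of ERK, fell to 2.65 FPKM in Dex 1 h, against 8.89 FPKM in Control (−1.44). Phlda1 (chromosome 7, 54272089 to 54274294), a negative regulator of growth factor receptors, fell to 15.4 FPKM in Dex 1 h, against 42.5 FPKM in Control (−1.41; plain log2 ratio −1.46 ± 0.33, SE). Errfi1, the inhibitor of the EGF receptor family also called MIG6, rose to 56.7 FPKM in Dex 1 h, against 20.6 FPKM in Control (1.42). Errfi1 and Phlda1 were the 2 marked of 11 tested feedback inhibitors, and among the other 9 tested MAP kinase phosphatases none was marked. The cytosolic ERK phosphatase Dusp6 lay above Control, at 27.9 FPKM in Dex 1 h and 17.4 FPKM in Control, and Dusp4 below it, at 10.5 FPKM in Dex 1 h and 17.1 FPKM in Control. Dusp1, known as a glucocorticoid target in other cells, had 62.2 FPKM in Dex 1 h and 57.4 FPKM in Control and was not marked. None of 24 tested EGF-family, FGF and related ligands was marked (median −0.15, 6 of 24 above Control), and the 2 with the highest Control level were Vegfa, at 93.6 FPKM in Dex 1 h and 107 FPKM in Control, and Pdgfa, at 36.5 FPKM in Dex 1 h and 43.3 FPKM in Control.

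The Dusp5 promoter is shown because letters of the CArG box, the element bound by serum response factor, occur in it next to each other. Sequences here and below are RefSeq's 300 bases around the annotated start in build GRCr8, 250 before it and 50 after, on the gene's strand (chr1:262543524-262543823, plus strand), and capitals mark both CArG boxes, the first at position −82 from the start.
Dusp5: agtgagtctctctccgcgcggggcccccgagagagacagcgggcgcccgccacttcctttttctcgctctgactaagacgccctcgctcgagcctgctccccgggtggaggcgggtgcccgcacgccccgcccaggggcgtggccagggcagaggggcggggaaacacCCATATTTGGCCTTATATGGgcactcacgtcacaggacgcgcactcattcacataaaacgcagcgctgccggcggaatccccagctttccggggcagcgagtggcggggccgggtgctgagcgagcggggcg
Among genes that fell, 17 of 27 symbols had exactly 1 promoter in the table, and 2 of these 17 (11.8%) held a CArG box, Dusp5 and Egr1. None of the 51 promoters found for the 69 symbols that rose held one. The share was 1.19% of the 8002 member promoters and 1.65% of all 24206 promoters of that length, both strands searched. A match of letters is a description and not a measured binding site.

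In inflammatory and cytokine signalling the inhibitors Nfkbia and Cish and the enzyme Ptgs2 rose, while the cytokine Lif, the receptor Cxcr4 and the inhibitor Socs3 fell. Nfkbia, the inhibitor IkB-alpha that holds NF-kB in the cytosol (chromosome 6, 85803989 to 85807223), had 54.6 FPKM in Dex 1 h and 16.3 FPKM in Control (1.68; plain log2 ratio 1.74 ± 0.33, SE). It was the 1 marked gene of 16 tested NF-kB subunits and regulators, and the subunit gene Rela had 32.5 FPKM in Dex 1 h and 36.7 FPKM in Control. Cish, a SOCS-family inhibitor of STAT5 signalling, rose to 20.4 FPKM in Dex 1 h, against 9.48 FPKM in Control (1.03). Its relative Socs3, the inhibitor of gp130 receptors, fell to 1.89 FPKM in Dex 1 h, against 5.07 FPKM in Control (−1.07). The gp130 cytokine Lif, a hypertrophic factor for cardiomyocytes, fell to 3.23 FPKM in Dex 1 h, against 8.29 FPKM in Control (−1.14). Of 28 tested genes of this pathway these 3 were marked, and the median was 0.05.

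Cxcr4, the receptor of the chemokine Cxcl12, fell to 6.67 FPKM in Dex 1 h, against 19.2 FPKM in Control (−1.40), and was the 1 marked gene of 14 tested chemokines and receptors. Its ligand Cxcl12 had 26.7 FPKM in Dex 1 h and 26.0 FPKM in Control. Irf1, an interferon regulatory factor, fell to 6.36 FPKM in Dex 1 h, against 11.0 FPKM in Control (−0.71), while the other 24 tested interferon response genes were not marked (median of all 25, 0.06). Ptgs2, the inducible cyclooxygenase that glucocorticoids lower in many inflamed cells, rose to 12.7 FPKM in Dex 1 h, against 4.74 FPKM in Control (1.25), the 1 marked of 14 tested prostaglandin and annexin genes. Tissue factor, F3, which starts coagulation, rose as well, with 28.4 FPKM in Dex 1 h and 12.2 FPKM in Control (1.16). So did C5ar2, a receptor of complement fragment C5a, at 3.68 FPKM in Dex 1 h and 1.64 FPKM in Control (0.83), and the receptor gene Relt (0.88).

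The Nfkbia promoter (chr6:78597023-78597322, minus strand) is shown for its NF-kB-type match, printed in capitals, to GGGA and TTTCC with any 1 base between. The match lies on the strand opposite to the printed one, where it reads GGAAATTCCC as printed, from position −31.
Nfkbia: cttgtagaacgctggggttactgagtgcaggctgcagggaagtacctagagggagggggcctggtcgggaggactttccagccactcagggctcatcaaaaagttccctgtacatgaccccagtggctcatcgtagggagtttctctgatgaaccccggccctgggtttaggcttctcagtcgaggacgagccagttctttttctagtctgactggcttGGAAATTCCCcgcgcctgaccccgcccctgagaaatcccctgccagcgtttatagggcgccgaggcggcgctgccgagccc
Nfkbia was the 1 gene of 51 with this motif among those that rose, none of the 17 promoters of genes that fell held it, and it occurred in 0.425% of member promoters and 0.376% of all promoters, both strands searched.

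Regulators of the actin cytoskeleton and of cell contacts changed as single genes. Abra, the actin-binding protein STARS that feeds into serum response factor (chromosome 7, 80816574 to 80820643), had 35.3 FPKM in Dex 1 h and 6.69 FPKM in Control (2.24; plain log2 ratio 2.40 ± 0.36, SE). It was the 1 marked of 18 tested actin regulators and partners of serum response factor, and Srf itself had 43.0 FPKM in Dex 1 h and 53.9 FPKM in Control. Among small GTPases and RGS proteins 3 rose and 1 fell of 23 tested, and 7 reached an unadjusted p below 0.05 in the authors' deposited table. Rhob, a short-lived small GTPase of endosomes, had 150.4 FPKM in Dex 1 h and 86.7 FPKM in Control (0.79). In the same list Rasd1, also named Dexras1 for its induction by dexamethasone, had 7.10 FPKM in Dex 1 h and 2.82 FPKM in Control (1.08), and Rgs1, a regulator of G protein signalling, had 1.82 FPKM in Dex 1 h and 0.479 FPKM in Control (0.93). Rnd1, a small GTPase that loosens actin stress fibres, fell to 26.9 FPKM in Dex 1 h, against 45.2 FPKM in Control (−0.72). Cdc42ep2, an effector of Cdc42, rose (0.78).

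Among 25 tested adhesion and junction genes 2 rose and 1 fell. Flrt3, a membrane protein that binds fibroblast growth factor receptors and latrophilins, had 5.56 FPKM in Dex 1 h and 1.29 FPKM in Control (1.52). Cldn1, a tight junction claudin, had 1.24 FPKM in Dex 1 h and 0.116 FPKM in Control (1.01), and its plain log2 ratio of 3.42 ± 0.66 (SE) shows how much the added 1 FPKM weighs at such levels. Gja1, connexin 43, the main gap junction protein of ventricular muscle, fell to 71.6 FPKM in Dex 1 h, against 127 FPKM in Control (−0.81). Efna1, a membrane-bound ephrin ligand, fell too (−0.91), and so did Hes1, the Notch-responsive repressor, with 15.5 FPKM in Dex 1 h and 34.5 FPKM in Control (−1.11). Hes1 was the 1 marked of 17 tested Notch genes, 16 of which lay below Control (median −0.12). In the matrix list of 36 tested genes the protease Adamts1 rose, at 120.1 FPKM in Dex 1 h and 62.8 FPKM in Control (0.92), and Col2a1, a cartilage collagen, fell, at 0.919 FPKM in Dex 1 h and 2.48 FPKM in Control (−0.86). In the Wnt list 1 of 28 tested rows fell, a row of the receptor gene Fzd8 (−0.67) whose symbol stands on a second row that was not marked at the same log2 fold, so its value is uncertain.

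Lists of muscle structure, calcium handling and cardiac peptides held no marked gene and had medians near 0. None of 22 tested sarcomere genes was marked (median −0.06), with the light chain Myl2 at 8731 FPKM in Dex 1 h and 8776 FPKM in Control and the actin Actc1 at 4935 FPKM in Dex 1 h and 5592 FPKM in Control. None of 35 calcium handling and ion channel genes was marked (median −0.04), with the calcium-binding chaperone Calr at 789 FPKM in Dex 1 h and 813 FPKM in Control and the calcium pump Atp2a2 at 468 FPKM in Dex 1 h and 463 FPKM in Control. None of 20 natriuretic, endothelin and angiotensin genes was marked either (median −0.04), and the peptide gene Nppb had 1180 FPKM in Dex 1 h and 1369 FPKM in Control. Marked genes of heart muscle outside these lists included Gja1, which fell as given above, and Lrrc10, a leucine-rich repeat protein of the cardiomyocyte Z-disc. Lrrc10 stood on 2 rows, one with 51.8 FPKM in Dex 1 h and 27.8 FPKM in Control (0.87) and the other with 53.9 FPKM in Dex 1 h and 29.5 FPKM in Control (0.85). Since both rows hold the same symbol its level is uncertain. Metallothionein Mt2A, a metal-binding protein known as a glucocorticoid target in human cells, had 55.5 FPKM in Dex 1 h and 29.99 FPKM in Control (0.87), the 1 marked of 21 tested stress genes, while Mt1a had 47.7 FPKM in Dex 1 h and 35.3 FPKM in Control.

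The promoters of Lrrc10 (chr7:54572685-54572984, plus strand), Mt2A (chr19:10838659-10838958, minus strand) and Errfi1 (chr5:166606591-166606890, plus strand) are shown as examples of genes that rose with a TATAAA box close to the start. Capitals mark TATAAA, from −30, −31 and −35 in that order, and in Lrrc10 also the letters GGACATGATGTCC from −141, a match to GNACA and TGTNC with any 3 bases between, the letters shared by receptor response elements.
Lrrc10: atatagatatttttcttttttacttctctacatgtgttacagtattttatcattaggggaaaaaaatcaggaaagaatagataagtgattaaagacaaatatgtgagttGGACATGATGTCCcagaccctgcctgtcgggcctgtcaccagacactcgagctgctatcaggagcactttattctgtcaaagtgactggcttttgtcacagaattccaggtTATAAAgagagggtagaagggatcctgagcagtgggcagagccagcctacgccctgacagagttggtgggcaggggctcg
Mt2A: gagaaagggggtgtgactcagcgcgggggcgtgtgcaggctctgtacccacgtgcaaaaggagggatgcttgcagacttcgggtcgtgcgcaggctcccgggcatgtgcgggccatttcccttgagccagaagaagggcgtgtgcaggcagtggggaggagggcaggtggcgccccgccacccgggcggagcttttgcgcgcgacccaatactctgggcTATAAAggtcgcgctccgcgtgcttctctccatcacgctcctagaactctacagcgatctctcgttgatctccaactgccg
Errfi1: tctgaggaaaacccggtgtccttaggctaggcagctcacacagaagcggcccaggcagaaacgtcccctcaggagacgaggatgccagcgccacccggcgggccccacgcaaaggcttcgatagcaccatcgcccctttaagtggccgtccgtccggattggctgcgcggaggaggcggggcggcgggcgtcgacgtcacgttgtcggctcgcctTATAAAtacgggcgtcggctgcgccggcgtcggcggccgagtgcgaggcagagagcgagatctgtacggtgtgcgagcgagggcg
TATAAA on the coding strand, starting within 45 to 15 bases before the start, was found in 7 of 51 promoters of genes that rose (13.7%) and in 2 of 17 of genes that fell (11.8%), against 1.35% of 8002 member promoters and 1.96% of all 24206. Besides the 3 shown, Cebpb, Rgs1 and a pair of globin genes held it among those that rose, and Cxcr4 and Ier5 among those that fell. The receptor-type pair of half-sites was in Lrrc10 alone among the 51, in none of the 17, in 0.237% of member promoters and in 0.417% of all promoters, both strands searched. The half-site AGAACA was in 15.7% of promoters of genes that rose, 5.88% of those that fell, 11.9% of member promoters and 19.7% of all promoters.

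Haemoglobin transcripts of red blood cells rose with the genes above. Hba1 had 97.5 FPKM in Dex 1 h and 48.2 FPKM in Control (1.00), Hba2 had 65.2 FPKM in Dex 1 h and 33.4 FPKM in Control (0.95), and the beta-globin row Hbb-b1 had 18.7 FPKM in Dex 1 h and 8.75 FPKM in Control (1.02). Further beta-globin rows, Hbb and LOC689064, rose by 1.16 and 1.08. These genes are near-identical copies and the split between them is uncertain. Of the other erythroid markers, Alas2 had 0.272 FPKM in Dex 1 h and 0.124 FPKM in Control, and Slc4a1 had 0.0467 FPKM in Dex 1 h and 0.0654 FPKM in Control. The summed level of Hba1, Hba2, Hbb-b1, Alas2 and Slc4a1 was 182 FPKM in Dex 1 h and 90.5 FPKM in Control. Left out of this sum were the Hbb row, at 86.5 FPKM in Dex 1 h and 38.1 FPKM in Control, and LOC689064, at 9.78 and 4.09 FPKM in the same order. In bulk RNA, more or fewer cells of a type cannot be told apart from more or less RNA per cell, and the part of blood cells in the marked genes was not tested.

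Markers of the labelled cells were abundant, with 9 tested cardiomyocyte markers summing to 23181 FPKM in Dex 1 h and 23815 FPKM in Control (median −0.06). Fibroblast markers were also plentiful, although preplating is meant to remove such cells. They summed to 8428 FPKM in Dex 1 h and 8625 FPKM in Control (median −0.01). This sum holds Col1a2 on more than 1 row with the same symbol, so it is uncertain. Col1a1 is listed at 0 in both groups, but its row has the status HIDATA in place of a test. That 0 is not read as absence, as a Col1a2 row had 1834 FPKM in Dex 1 h and 1876 FPKM in Control. Smooth muscle and pericyte markers summed to 7604 FPKM in Dex 1 h and 8747 FPKM in Control (median −0.19, 0 of 6 above Control). Endothelial markers summed to 141 FPKM in Dex 1 h and 143 FPKM in Control (median 0.02), macrophage markers to 125 FPKM in Dex 1 h and 119.7 FPKM in Control (median 0.12, 6 of 6 above Control) and mesothelial markers to 33.0 FPKM in Dex 1 h and 30.3 FPKM in Control (median 0.21). No marker of these 6 lists was marked by the authors, and their part in the result was not tested.

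Several lists held no marked gene. These were TGF-beta and BMP signalling (33 tested, median −0.05), YAP targets and CCN proteins (14, −0.11), FoxO, atrophy and autophagy genes (17, −0.08), the apoptosis and Bcl2 family (27, −0.01) and the cell cycle with its inhibitors (32, 0.0064). Over all tested genes 0.622% were marked higher and 0.242% lower, so lists of this size can hold none without being set apart. Of these lists, TGF-beta and BMP signalling had 4 genes below an unadjusted p of 0.05 in the authors' deposited table, all lower than in Control. They included Id3, a target of BMP signalling and second to Tgfb3 in Control level, at 73.7 FPKM in Dex 1 h and 119.9 FPKM in Control. The highest level in the YAP list was that of Ctgf, with 2364 FPKM in Dex 1 h and 2392 FPKM in Control, and in the cell cycle list that of Cdk4, with 211.5 FPKM in Dex 1 h and 220.3 FPKM in Control. In the apoptosis list it was the receptor gene Tnfrsf12a, at 240 FPKM in Dex 1 h and 297 FPKM in Control. In the FoxO list it was the autophagy receptor Sqstm1, at 213.1 FPKM in Dex 1 h and 235.7 FPKM in Control. The atrophy ubiquitin ligases Trim63 and Fbxo32, known from glucocorticoid-treated skeletal muscle, were not marked either, Trim63 having 35.5 FPKM in Dex 1 h and 29.2 FPKM in Control and Fbxo32 having 15.1 FPKM in Dex 1 h and 16.1 FPKM in Control. Among mRNA decay factors Tob2, an antiproliferative partner of the CCR4-NOT deadenylase, rose, at 24.2 FPKM in Dex 1 h and 12.3 FPKM in Control (0.92), the 1 marked of 11, while its paralog Tob1 had 12.0 FPKM in Dex 1 h and 19.7 FPKM in Control without a mark. Large gene families grouped by symbol were likewise near 0, with no mark among 89 ribosomal protein, 72 mitochondrial ribosomal protein, 48 proteasome, 66 heat shock and 55 Rab rows. Of 222 tested solute carriers 2 rose, a share near the 0.622% marked higher among all tested genes. They were Slc10a6, a carrier of steroid sulfates (1.15, uncertain because its locus overlaps another row), and Slc28a2, a nucleoside transporter (0.76).

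Genes marked in either direction had shorter loci than the members as a whole. The median locus length in the authors' deposited table was 8868 bases for genes that rose and 3676 bases for genes that fell, against 21811.5 bases for all tested members. Loci under 10 kb held 56.3% of the genes that rose (40) and 82.1% of those that fell (23), against 27.7% of the members. The marked share was 3.84% of loci under 2 kb and 0.222% of loci of 100 kb or more. Short loci also lay slightly lower as a class, with a median log2 fold of −0.09 under 2 kb and 0.05 between 50 and 100 kb. With the median of its length class taken off each gene, the median of the early genes was −0.42 in place of −0.49.

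GR-bound regions, mapped by ChIP sequencing in another experiment whose control was DMSO, had been assigned to genes by the authors, and their height is the highest average tag value. A region was assigned to 70.4% of the genes that rose (50 of 71) and to 60.7% of the genes that fell (17 of 28), against 48.1% of the tested members. Genes that rose more often had several, with 2 or more regions at 46.5% of them, at 32.1% of the genes that fell and at 17.0% of the members. The highest region of a gene had a median of 38.4 tags for genes that rose, 20.2 tags for genes that fell and 21.8 tags for all members with a region. A region of 50 tags or more stood at 15 of the genes that rose (21.1%), at 0 of the 28 that fell and at 2.67% of the members. Among the 282 members with such a region 5.32% rose, against 0.384% of the 5475 members with no region. No source used here gives the build or the peak caller of these regions, and these shares carry no test.

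**Figure D3:**
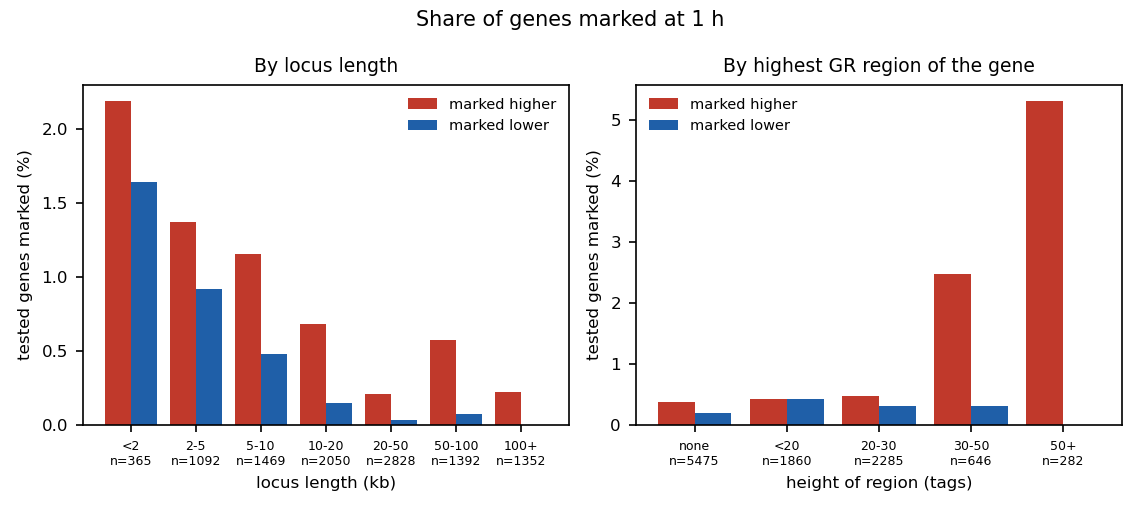
Share of tested members marked higher (red) and lower (blue), by locus length in kb on the left and by the height in tags of the gene's highest GR region on the right, with the number of members under each class. The marked share is highest for loci under 2 kb, and the share marked higher is highest, at 5.32%, for genes with a region of 50 tags or more, where none is marked lower.

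The highest regions at genes that rose were those of Sesn1 (118.4 tags, 71141 bases from the start), F3 (117.5 tags, 13039 bases), Klf9 (112.5 tags, at −5104) and Arrdc2 (103.4 tags, 5740 bases). Fkbp5 had 6 regions, the highest of 68.7 tags. Large folds also stood beside lower regions, as Pdk4 had a single region of 23.5 tags at −377 and Abra a single one of 25.3 tags at −126. Among genes that fell, Junb had 6 regions, all within 10 kb and the highest of 29.3 tags, and Hes1 had 5, the highest of 25.3 tags. Flrt3, Cldn1 and Lrrc10 rose and Dusp5, Gja1 and G0s2 fell with no region assigned. High regions also stood at genes that were not marked, such as Ddc (134 tags), at 9.84 FPKM in Dex 1 h and 9.49 FPKM in Control, and Crispld2 (122 tags), at 17.4 FPKM in Dex 1 h and 12.6 FPKM in Control. The unmarked gene Kcnn1 had the same highest value as Arrdc2, 103.4 tags, so 1 region may be assigned to more than 1 gene.

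Few marked genes were neighbours. On chromosome 6 Mycn (51348169 to 51353994), which fell, and Lpin1 (51534868 to 51602407), which rose, lie 180874 bases apart with no other row between them. On chromosome 20 Ddit4 (31315023 to 31317123) and Chst3 (31536784 to 31539327), a chondroitin sulfotransferase, both rose and lie 219661 bases apart with 2 rows between them. The remaining neighbours were the globin clusters, repeated rows of Lrrc10 and of Zfp697, and 2 rows of the ribosomal RNA Rn5-8s beside LOC310926, which fell together. The Rn5-8s rows had 194 and 251 FPKM in Dex 1 h, against 702 and 691 FPKM in Control, and as near-identical copies of other rows they are uncertain. LOC310926 shares its symbol with another row and is uncertain as well.

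Some members moved by as much without being marked. Orm1, the acute phase protein orosomucoid, had 2.31 FPKM in Dex 1 h and 0.0256 FPKM in Control (1.69), and the GTPase regulator Rgs2 had 54.8 FPKM in Dex 1 h and 25.5 FPKM in Control (1.07), where a second row overlaps its locus. LOC500300, the noncoding RNA Bc1 and Tmsbl1 followed (1.18, 1.11 and 0.80). The loci of LOC500300 and Bc1 are overlapped by other rows, so both folds are uncertain. On the lower side stood another Rn5-8s row (−1.77), LOC102723236 (−1.06 and −0.75 on 2 rows), Lect1 (−0.79) and the EGF receptor ligand Areg, at 2.47 FPKM in Dex 1 h and 4.80 FPKM in Control (−0.74). The 21 rows that carry a microRNA name were set aside from these. None was marked, 5 were listed at 0 in Dex 1 h and 3 in Control. Aspa, an aminoacylase, was marked higher but fell short of 1 FPKM in both groups, at 0.940 FPKM in Dex 1 h and 0.197 FPKM in Control. At the edge of the threshold, Zp2, at 1.01 FPKM in Dex 1 h, was just inside and Kbtbd8, at 0.999 FPKM in Dex 1 h, just outside. Other rows overlap the Zp2 locus, so its level is uncertain.

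The later group shows where these levels stood after 24 h. It shares its Control with the comparison above, so the values are set side by side with no count of agreement. Arrdc3 had 7.55 FPKM in Control, 44.4 in Dex 1 h and 12.3 in Dex 24 h, and Pdk4 had 4.06, 32.8 and 10.7 FPKM in the same order, so both lay nearer to Control than after 1 h. Per1 (8.02, 44.99 and 36.5 FPKM) and Klf15 (6.22, 27.2 and 24.7 FPKM) were still high in Dex 24 h. Rgcc, a regulator of the cell cycle, had 6.26 FPKM in Control, 18.8 in Dex 1 h and 114 in Dex 24 h, and Fkbp5 had 8.97, 16.8 and 57.7 FPKM in the same order, so both were highest in Dex 24 h. Among the genes that fell, Egr1 had 42.2 FPKM in Control, 25.7 in Dex 1 h and 43.3 in Dex 24 h, and Cxcr4 had 19.2, 6.67 and 19.4 FPKM in the same order, both next to their Control value in Dex 24 h. G0s2 stayed low, with 40.8, 18.7 and 18.7 FPKM in the same order. Between Dex 24 h and Control 5.84% of the 10545 tested members were marked, and between Dex 24 h and Dex 1 h 4.5% of 10544.

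**Figure D4:**
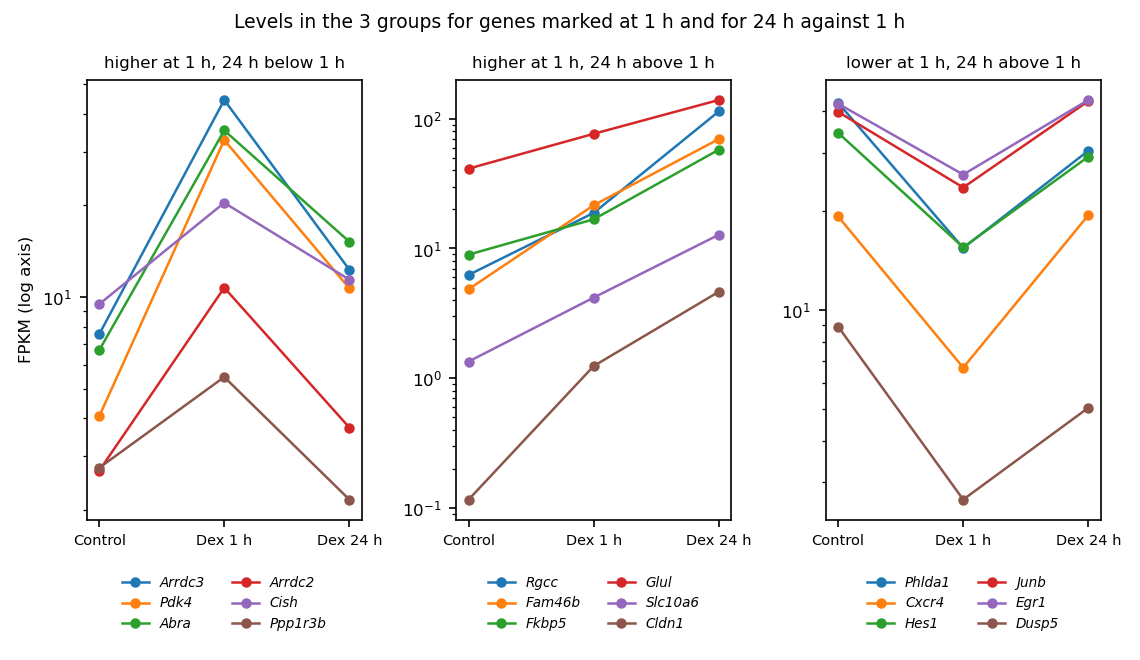
FPKM (log axis) in Control, Dex 1 h and Dex 24 h for 18 genes marked at 1 h and also marked by the authors for Dex 24 h against Dex 1 h, 1 line per gene. The left panel shows genes that peak in Dex 1 h, such as Arrdc3 at 44.4 FPKM, the middle panel genes that go on rising, such as Rgcc with 114 FPKM in Dex 24 h, and the right panel genes that are lowest in Dex 1 h, such as Cxcr4 at 6.67 FPKM.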

How the data were processed

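RNA of 3 groups of neonatal rat ventricular myocytes was sequenced, with 1 sample per group. The submitters' processing notes name TopHat, Cufflinks, Cuffdiff and build rn5 but neither version nor role. The authors deposited 1 FPKM value per gene row and group; depth is unknown. The log2 fold columns of the authors' deposited table were not used, and folds were recomputed from the FPKM values. The p-value and q-value per gene and a test statistic, treated as a score, were deposited by the authors. The authors' test is the only one, and whether it took the 2 libraries of a group as replicates is not stated. The height of a GR region is a signal deposited by the authors, given with a log2 ratio of Dex over DMSO, and 6 further per-sample ChIP columns were not used.

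Members had at least 1 FPKM in Dex 1 h or Control. Folds are log2 of (Dex 1 h + 1)/(Control + 1). The implied SE is the plain log2 ratio divided by the test statistic, and is not a measured spread between replicates. Rows that overlap another row's locus or share its symbol (1267 members) count as uncertain. The members and the 47 gene lists (906 of 970 entries with a row) were chosen with earlier results of these data known. Genes named were those marked, the highest-level members of lists with none marked, the 5 highest and 5 lowest unmarked folds outside microRNA rows, and Nr3c1; other unmarked genes were chosen after their values were seen, for their kinship to marked ones. Symbols turned into dates (16 members) were not named, and 1 marked gene and its list are not reported here. Promoters came from RefSeq (GRCr8), used only where a symbol had exactly 1 entry. Scripts used Python 3.11.15, pandas 2.3.3 and numpy 2.4.6 and were tested on simulated data.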

Additional observations from a re-analysis of the deposited data

Results flagged for a closer look

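The authors' own test of Dex 24 h against Dex 1 h marked 33 of the genes described, which is a difference between the 2 times under the same Control. The values below are log2 folds of Dex 24 h over Dex 1 h with 1 FPKM added, and 4.5% of the 10544 members tested there were marked. That comparison uses the same Dex 1 h values that chose these genes. Among genes that rose at 1 h, the levels in Dex 24 h lay above Dex 1 h for Fam46b (1.65), Rgcc (2.54), Slc10a6 (1.41), Cyb561 (1.10), Cldn1 (1.33), Glul (0.86), Fkbp5 (1.72), C5ar2 (0.79), Slc28a2 (1.27), Acer2 (0.69) and Cpa6 (0.98). They lay below Dex 1 h for Pdk4 (−1.53), Arrdc3 (−1.77), Abra (−1.16), Sesn1 (−0.66), Arrdc2 (−1.31), Zfp189 (−0.83), Cish (−0.79), Rgs1 (−0.81), Relt (−0.71) and Ppp1r3b (−1.03). Among genes that fell at 1 h, they lay above Dex 1 h for Arc (0.95), Egr1 (0.73), Ier5 (0.69), Rnd1 (0.75), Junb (0.84), Nuak2 (0.76), Klf10 (0.95), Hes1 (0.87), Cxcr4 (1.41), Phlda1 (0.94) and Dusp5 (0.73). Col2a1 was lower still in Dex 24 h (−0.48).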

How the results depend on the processing

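At a q-value of at most 0.01 the authors' deposited table gives 63 marked members, 49 higher and 14 lower, in place of 99, and an adjustment within the 1 h comparison alone at 0.05 likewise gives 63 (49 and 14). Among the 99 marked members 36 lose the mark at 0.01. With 5 FPKM added in place of 1, 33 members passed 2-fold (20 higher, 13 lower) in place of 59, and without uncertain rows 39 did (30 higher, 9 lower). With regions limited to 10 kb from the start, a GR region stood at 57.7% of the genes that rose and at 38.8% of the members. Another pseudocount changes the size of a fold but cannot turn its direction. The rescaling used a median ratio of 0.994, a log2 of −0.0086, while the smallest marked log2 fold was 0.64 in size. Neither setting could therefore turn the direction of a marked member, and neither tests it. Nr3c1, which is not marked, had a log2 fold of −0.00529 without and of 0.00291 with the rescaling. No paired analysis was possible because each group has 1 value per gene, and for the same reason no library could be left out. Depth is unknown, so no detection limit can be given for genes near 0 FPKM.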
